A study of Mus musculus with 6 samples.

Results

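The genes described here make and sense the prostaglandins: the cyclooxygenases Ptgs1 and Ptgs2, the terminal synthases Ptgis, Ptges and Ptgds, and the receptors Ptger2, Ptger4, Ptgfr and Ptgir. They were taken from the array by gene name, every non-control probe that carried 1 of the 9 names being kept. This gave 10 probes of 41174, 1 for each gene and 2 for Ptgs2. The array held 29742 gene names in all. The cells were mouse embryonic fibroblasts, connective tissue cells grown from minced E15 embryos, either wild type or homozygous for a deletion within the helicase domain of Wrn, the mouse homologue of the gene mutated in Werner Syndrome (Wrn Δhel/Δhel, called WS in the labels). Both genotypes came from a mixed 129/Sv and Black Swiss background, and the labels do not say whether a culture came from 1 embryo or several. Treated cells received 0.5 mM H2O2 for 1 hour and then fresh medium for 24 hours, while untreated cells received none.

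Each of the 6 two-colour arrays compared RNA from 2 cultures, and each of the 3 comparisons had 2 arrays. The comparisons were of H2O2 with no H2O2 in wild type cells, the same in mutant cells, and mutant with wild type cells when neither was treated. The last are called the genotype arrays below, and the first 4 the treatment arrays. The sample titles number the cultures of the genotype arrays 3 and 4 and those of the treatment arrays 1 and 2. On the treatment arrays the treated cells were always in the Cy5 dye, so a preference of a probe for that dye cannot be told apart from treatment. On the genotype arrays the sample labels put the wild type in Cy5, whereas the columns of the study's own gene list run as if the mutant were in Cy5. The direction was settled with the untreated (Cy3) channels of the treatment arrays: over the 7887 probes called on the genotype arrays with a value there, mutant minus wild type correlated at r = 0.85 with Cy5 over Cy3 and shared its sign in 89.6%. Cy5 was therefore taken to hold the mutant, which opposes the sample labels, and every sign on the genotype arrays is the likely one rather than a certain one. An exchange of the genotypes on all 4 treatment arrays would give the opposite. If the dyes ran as labelled, each log2 ratio of mutant over wild type given for those arrays would change its sign.

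Prostaglandins are short-lived lipid signals that act on the cell that makes them and on its neighbours. Phospholipases free arachidonic acid from the membrane, a cyclooxygenase turns it into prostaglandin H2, and each terminal synthase turns that intermediate into a different product: Ptgis into prostacyclin, Ptges into prostaglandin E2 and Ptgds into prostaglandin D2. Ptgs1 is known as the cyclooxygenase that most cells express constantly and Ptgs2 as the one induced by growth factors, inflammation and stress. The products leave the cell and bind G protein-coupled receptors, among them Ptgir for prostacyclin, Ptger2 and Ptger4 for prostaglandin E2, both of which raise cyclic AMP, and Ptgfr for prostaglandin F2α, which raises calcium. In fibroblasts the pathway is known for its part in inflammation, wound repair and the control of proliferation.

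Upstream sequence was matched by symbol for 8 of the 9 genes in a RefSeq promoter table of the build GRCm38.p6, Ptgis having no entry. The 250 bases before the annotated start are shown for 3 genes that were lower in mutant cells (Ptgs2, Ptges and Ptger4) and for Ptgs1, the cyclooxygenase that was higher, because these carry the contrast described below. They read 5′ to 3′ on the strand of the gene, with the start following the last base, and capitals mark the motifs found.
Ptgs2: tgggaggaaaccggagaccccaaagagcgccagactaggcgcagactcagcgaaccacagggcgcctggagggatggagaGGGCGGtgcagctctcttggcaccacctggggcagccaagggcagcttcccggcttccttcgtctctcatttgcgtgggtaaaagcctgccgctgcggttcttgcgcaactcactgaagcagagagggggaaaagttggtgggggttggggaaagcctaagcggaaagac
Ptges: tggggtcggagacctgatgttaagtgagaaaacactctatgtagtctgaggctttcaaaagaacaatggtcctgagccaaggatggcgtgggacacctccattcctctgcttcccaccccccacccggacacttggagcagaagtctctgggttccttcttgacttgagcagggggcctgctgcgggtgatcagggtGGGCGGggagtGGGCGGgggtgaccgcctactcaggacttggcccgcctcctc
Ptger4: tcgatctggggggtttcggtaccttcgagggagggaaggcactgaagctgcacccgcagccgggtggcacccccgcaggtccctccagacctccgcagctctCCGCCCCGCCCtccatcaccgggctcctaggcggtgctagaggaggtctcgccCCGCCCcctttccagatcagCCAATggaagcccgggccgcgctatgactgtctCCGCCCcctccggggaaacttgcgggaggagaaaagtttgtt
Ptgs1: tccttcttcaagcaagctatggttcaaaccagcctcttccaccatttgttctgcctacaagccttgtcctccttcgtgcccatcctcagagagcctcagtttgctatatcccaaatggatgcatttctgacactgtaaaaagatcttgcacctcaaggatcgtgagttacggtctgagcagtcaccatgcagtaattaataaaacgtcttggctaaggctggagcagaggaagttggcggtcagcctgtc
The Ptgs2 window is chr1:150099781-150100030 on the plus strand and the Ptgs1 window chr2:36230176-36230425 on the plus strand. The Ptges window is chr2:30903298-30903547 and the Ptger4 window chr15:5244188-5244437, both on the minus strand. Both strands were searched for 6 motifs: the TATA box TATAAA, the GC box GGGCGG, the CCAAT box CCAAT, the CRE half-site TGACG, the E-box CACGTG and the AP-1 site TGANTCA. Of all 32851 windows of this length in the table, 12.4% held the first, 32.7% the GC box, 33.8% CCAAT, 17.8% TGACG, 6.02% CACGTG and 6.75% TGANTCA. Ptgs2 held 1 GC box, which began 170 bases before the start, and Ptges held 2, which began 53 and 42 bases before it. Ptger4 held 4 GC boxes on the opposite strand, of which the 2 farthest from the start share 1 base, and 1 CCAAT box that began 75 bases before the start. Ptgs1 held no match to any of the 6. The GC content was 61.6% for Ptgs2, 59.6% for Ptges, 66.8% for Ptger4 and 48% for Ptgs1, against a median of 52.4% over the table. Among the genes not shown, Ptgir held 2 GC boxes, Ptgfr 1, Ptger2 a CCAAT box and Ptgds an AP-1 site. These matches describe the letters of the windows and were not tested against expression.

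In untreated cells, 6 of the 9 genes differed between the genotypes, 4 being lower and 2 higher in the mutant. Ptgis, Ptgs2, Ptges and Ptger4 were lower, and Ptgs1 and Ptgir were higher. Counted as probes, 7 of 10 were called at an adjusted p under 0.05 (limma, Benjamini-Hochberg adjustment over all probes), 5 lower and 2 higher, where 19.6% of all 41099 probes tested were called in this comparison, 9.78% lower and 9.83% higher. The median log2 ratio of the 10 probes was -0.63, against 0.00 over all probes. With the thresholds the study used for this comparison (adjusted p under 0.005 and a mean log2 intensity above 6), Ptgis, Ptges and 1 probe of Ptgs2 passed, against 1.76% of all probes. After H2O2 none of the 10 probes was called in either genotype (limma), where 0.258% of all probes were called in wild type and 0% in mutant cells, so that a count of 0 sets these genes apart from no others. The plot of log2 ratios by array shows all 10 probes in the 3 comparisons.

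**Figure D1:**
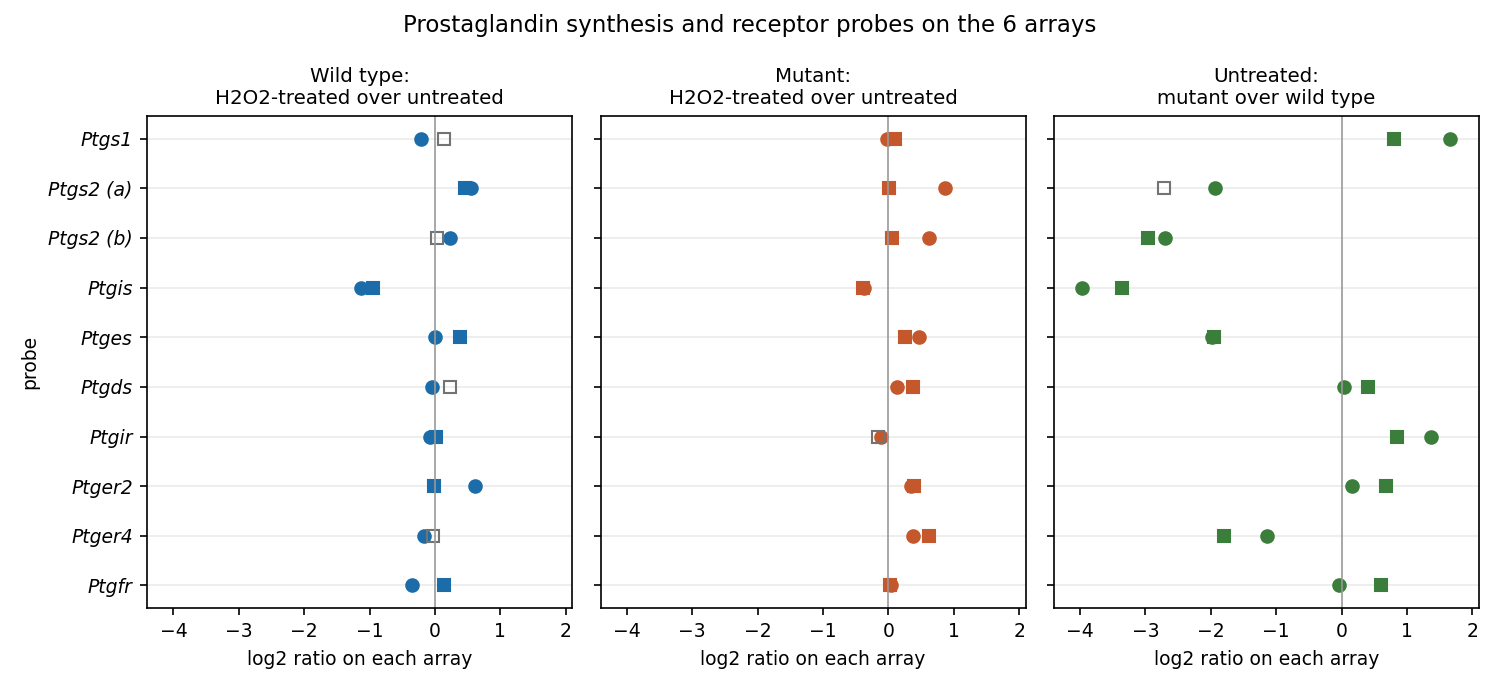
Log2 ratio (x axis) of each prostaglandin probe (y axis) on every array, for treated over untreated wild type cells, treated over untreated mutant cells and untreated mutant over untreated wild type cells. Circles are the lower-numbered and squares the higher-numbered replicate; open grey symbols are spots marked as outliers by the scanner software, shown but left out of the tests. Ptgs2 (a) and (b) are its 2 probes. The treatment ratios lie between -1.13 and 0.87, while the genotype ratios reach -3.97 for Ptgis.

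Ptgs2, the inducible cyclooxygenase, was lower in mutant cells by both of its probes. The brighter probe (A_51_P254855, probe a) read -1.94 (log2, mutant over wild type) on replicate 3, and its spot on replicate 4 was marked as an outlier by the scanner software and left out. That spot would have read -2.71. The dimmer probe (A_52_P224760, probe b) gave -2.69 and -2.97. Both probes thus had the mutant below the wild type on every genotype array with a value. Probe b was lower by 2.83 on the log2 scale (SE 0.20, 7.11-fold, adjusted p = 0.00155, limma, n = 2 arrays) and probe a, on its 1 array, by 1.94 (SE 0.33, 3.84-fold, adjusted p = 0.0143). The call of probe a rested on the spread of the other arrays, and it was lost when the genotype arrays were fitted alone (adjusted p = 0.055), after median centring without loess (0.0974) and on the scanner software's own ratios (0.102).

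Ptgs1, the constitutive cyclooxygenase, stood on the other side of wild type. Its log2 ratios of mutant over wild type were 1.65 and 0.79, so that the mutant was higher on both genotype arrays, though by unequal amounts. The difference was 1.22 (SE 0.24, 2.34-fold, adjusted p = 0.0201, limma, n = 2 arrays). Leaving out either mutant treatment array ended this call (adjusted p = 0.0676), as did the normexp background correction (0.0558), the scanner software's ratios (0.104) and a fit of the genotype arrays alone (0.077), while the ratio kept its direction in each of them. The 2 cyclooxygenases therefore had opposite signs on both genotype arrays, in the same pairs of cultures.

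Ptgis, which encodes prostacyclin synthase, had the largest difference of the 9 genes. Its log2 ratios of mutant over wild type were -3.97 and -3.36. The mean of -3.66 (SE 0.19, 12.7-fold lower, adjusted p = 0.0004, limma, n = 2 arrays) was among the lowest on the array, with 14 of 41099 probes at or below it, itself included. The call was kept whichever array was left out, with adjusted p-values of at most 0.00606.

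Ptges, the inducible microsomal synthase of prostaglandin E2, was lower by nearly the same amount on both genotype arrays, with log2 ratios of -1.98 and -1.96. The difference was -1.97 (SE 0.17, 3.91-fold, adjusted p = 0.00147, limma, n = 2 arrays), and the mutant channel was well above background on only 1 of these arrays. Ptgds, the lipocalin-type synthase of prostaglandin D2, gave 0.03 and 0.40. Its difference of 0.21 (95% interval from -0.23 to 0.66, adjusted p = 0.445) did not pass.

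Among the receptors, Ptger4, a receptor for prostaglandin E2, was lower in the mutant and Ptgir, the prostacyclin receptor, was higher. Ptger4 gave log2 ratios of -1.15 and -1.80. Its signal was well above background in all 4 channels of untreated wild type cells. In untreated mutant cells it was so in none of the 4 channels, so the size of the difference is uncertain. Untreated mutant cells measured 2.77-fold lower on the genotype arrays, with a fitted difference of -1.47 (SE 0.21, adjusted p = 0.00871, limma, n = 2 arrays). Here and in the Cy3 comparison, the fold given is the measured one, because the dim signal lay above the lowest signal called well above background. The 2.77-fold is not a lower limit, since replicate 3 alone gave the smaller difference of -1.15. The call was lost on the scanner software's ratios (adjusted p = 0.0741), and with normexp the difference was only -0.45. A probe whose gene name is not Ptger4, but whose description names the same receptor, gave 0.76 (adjusted p = 0.0985), with a log2 intensity that averaged 2.97, so the probes disagreed in sign.

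Ptgir gave log2 ratios of 1.37 and 0.85, both above 0. The difference was 1.11 (SE 0.19, 2.16-fold, adjusted p = 0.0144, limma, n = 2 arrays), a call that was lost with normexp (0.0589), with the scanner software's ratios (0.0779) and with the genotype arrays alone (0.0854). A probe whose gene name is not Ptgir, but whose description calls it a partial prostacyclin receptor mRNA, gave 0.32 (SE 0.16, adjusted p = 0.209) in the same comparison. Ptger2, a further prostaglandin E2 receptor, and Ptgfr, the prostaglandin F receptor, were close to the detection limit: in untreated mutant cells each was well above background in 1 of 4 channels. Their differences were 0.42 (95% interval from -0.08 to 0.92, adjusted p = 0.204) and 0.28 (95% interval from -0.22 to 0.78, adjusted p = 0.384).

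The treatment arrays offered the same contrast in cultures that the genotype arrays did not use, since their Cy3 channels hold untreated cells of each genotype. Within that single dye, mutant minus wild type was tested over 2 cultures each, with no dye preference entering the difference, although each array held 1 genotype only and array and genotype cannot be told apart there. Because these channels also settled the direction over all called probes, their signs are not independent of it, whereas their sizes are. The median over all probes was -0.10 in this comparison. Ptgis was lower by 4.13 on the log2 scale (SE 0.38, 17.5-fold, adjusted p = 0.000246, limma, n = 2 cultures per genotype) and Ptgs2 by 2.71 with probe a (SE 0.41, 6.53-fold, adjusted p = 0.00655). These were the 2 probes of 10 called, both lower, against 0.534% of all probes called in either direction and 0.298% called lower.

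The other members did not pass in Cy3. Ptgs2 probe b gave -2.49 (adjusted p = 0.0536) and Ptges -1.85 (adjusted p = 0.0514), both of similar size to the genotype arrays. Ptger4 gave a fitted value of -1.82 (95% interval from -2.94 to -0.69, 3.52-fold lower in the mutant, adjusted p = 0.22), again with no mutant channel well above background. Ptgs1 gave 0.79 (95% interval from -0.27 to 1.84) and Ptgir 0.40 (95% interval from -0.65 to 1.46). Over the alternative processing settings Ptgs1 ranged from 0.032 to 0.98 and Ptgir from 0.0042 to 0.74. With normexp background correction no member was called in Cy3 (Ptgis -3.36, adjusted p = 0.0639; Ptgs2 probe a -2.34, adjusted p = 0.154), and leaving out either mutant array raised both adjusted p-values above 0.5.

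In cells treated with H2O2, the Cy5 channels of the same 4 arrays gave a like picture. Ptgis was lower in treated mutant than in treated wild type cells by 3.47 on the log2 scale (SE 0.39, 11.1-fold, adjusted p = 0.00476, limma, n = 2 cultures per genotype) and Ptgs2 probe a by 2.77 (SE 0.39, 6.83-fold, adjusted p = 0.015). Again these 2 probes were called, against 0.368% of all probes in either direction and 0.174% lower. Ptges gave -1.67 (adjusted p = 0.147), Ptgs2 probe b -2.38 (adjusted p = 0.104) and Ptgs1 1.04 (95% interval from -0.08 to 2.16). Both calls were lost with normexp (0.112 for Ptgis and 0.119 for Ptgs2), and leaving out either mutant array again raised both adjusted p-values above 0.5. The plot of the genotype difference sets these measurements beside each other.

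**Figure D2:**
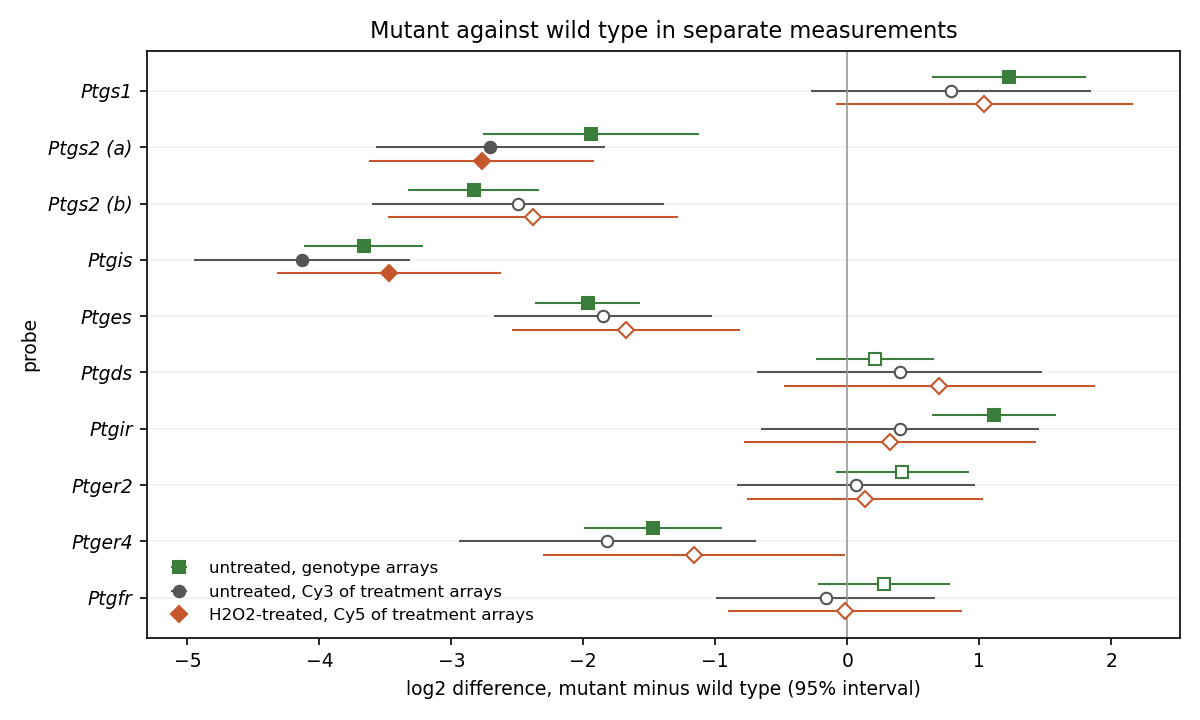
Log2 difference of mutant minus wild type (x axis, points, with 95% intervals as bars) for each probe (y axis) on the genotype arrays (squares), in Cy3 of the treatment arrays (untreated cells, circles) and in Cy5 of the treatment arrays (treated cells, diamonds); filled symbols have an adjusted p under 0.05. Ptgis lies between -4.13 and -3.47 in the 3 measurements, while Ptgir lies at 1.11 on the genotype arrays and at 0.40 and 0.32 in the others.

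Put on a common scale after normalization between arrays, where values of 1 probe can be compared across conditions but not between probes, Ptgis had an ordered level in the 4 conditions. The normalized log2 intensity of untreated wild type cells was 10.0 ± 0.17 (SD, n = 4 cultures) and that of treated wild type cells 9.11 ± 0.10 (n = 2). Untreated mutant cells lay at 6.1 ± 0.23 (n = 4) and treated mutant cells at 5.63 ± 0.06 (n = 2). None of these neighbours overlapped: the lowest untreated wild type culture, at 9.81, was above the highest treated one, at 9.18, and the lowest untreated mutant culture, at 5.94, was above the highest treated one, at 5.67. How many of all probes separate between conditions was not counted, for Ptgis here or for the genes below, and 19.6% of all probes were called on the genotype arrays. With the dyes as taken here, untreated wild type cells were in Cy3 on all 4 of their arrays and treated cells in Cy5, while untreated mutant cells were in Cy3 on the treatment arrays and in Cy5 on the genotype arrays, so dye preference is left in these levels.

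For Ptgs2 probe a, the order was treated wild type (10.1 ± 0.11, n = 2), untreated wild type (9.52 ± 0.21, n = 3), treated mutant (7.35 ± 0.12, n = 2) and untreated mutant (7.07 ± 0.43, n = 3). The treated and untreated mutant cultures overlapped, and the highest mutant culture (7.44) was far below the lowest wild type culture (9.31). Ptges followed the same order, with 7.63 ± 0.08 and 7.37 ± 0.13 in treated and untreated wild type cells and 5.95 ± 0.28 and 5.46 ± 0.16 in treated and untreated mutant cells. For Ptges the lowest treated wild type culture (7.57) lay next to the highest untreated one (7.56), while the highest mutant culture (6.15) lay below the lowest wild type culture (7.29).

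Ptgs1 was at 9.95 ± 0.28 in untreated wild type cells (n = 3) and 10.99 ± 0.57 in untreated mutant cells (n = 4). The mutant cultures spanned 10.4 to 11.8 and the wild type cultures 9.62 to 10.1, so the groups did not overlap, and treated mutant cells (10.9 ± 0.30, n = 2) lay inside the untreated mutant range. Ptgir did overlap: untreated wild type cells ranged from 6.03 to 7.14 and untreated mutant cells from 6.88 to 7.56. Its wild type level was lower by 0.93 on the genotype arrays than on the treatment arrays, where the median shift over all probes was -0.23. Ptgds overlapped too, with 6.42 to 6.88 in untreated wild type and 6.47 to 7.52 in untreated mutant cells. Ptger4 ranged from 5.83 to 6.15 in untreated wild type cells and from 3.61 to 4.78 in untreated mutant cells. The plot of levels by condition shows each culture.

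**Figure D3:**
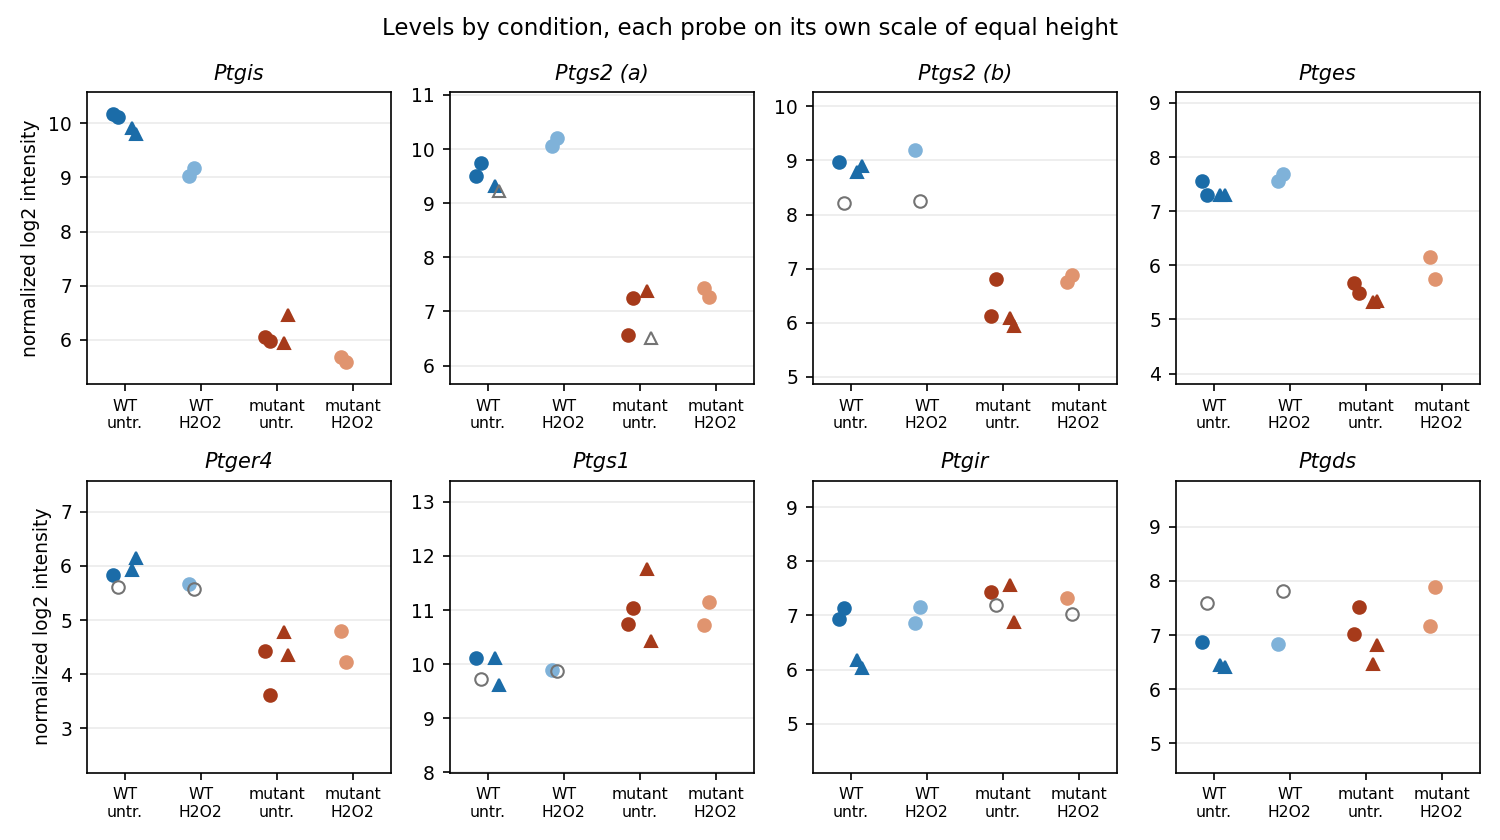
Normalized log2 intensity (y axis) of 8 probes in the 4 conditions (x axis), each panel on its own scale with the same height. Circles are channels of the treatment arrays, triangles those of the genotype arrays, and open grey symbols spots marked as outliers. Every mutant value of Ptgis, Ptgs2, Ptges and Ptger4 lies below every wild type value, while Ptgir and Ptgds overlap between the genotypes. The share of all probes that separate in this way was not counted.

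The response to H2O2 was small next to the difference between genotypes for the genes called on the genotype arrays. The remaining members, Ptgds, Ptger2 and Ptgfr, were called in neither. In wild type cells none of the 10 probes was called (limma, adjusted p under 0.05), and 1 had an unadjusted p under 0.05, where 0.258% of all 40303 probes tested were called. That probe was Ptgis, with log2 ratios of treated over untreated of -1.13 and -0.95. Both were below 0, and the mean was -1.04 (SE 0.19, 48.7% of the untreated level, adjusted p = 0.0574). This value lay at the threshold: it was called with outlier spots kept (adjusted p = 0.0467), with normexp (0.0374), on the authors' table of ratios (0.0458) and when dim probes were not tested (0.039), and leaving out either genotype array gave 0.000706. Leaving out wild type replicate 1 or 2 gave 0.796 and 0.279, and median centring without loess gave a ratio of -0.46. With the wild type treatment arrays fitted alone, the adjusted p was 0.000849. Most fibroblast marker probes lay on the same side in this comparison. None of the 15 tested was called (limma), 3 were above 0 and the median was -0.99. An unadjusted p under 0.05 was reached by 9 of them, where 8065 of all 40303 probes reached it. Dcn was at -1.11 (adjusted p = 0.0797), Postn at -1.18 (0.0625) and Pdgfrb at -1.09 (0.0955) for their brighter or single probes. Vim, the brightest marker, went the other way, at 0.91 (adjusted p = 0.204). Their part in the Ptgis value was not tested.

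In mutant cells Ptgis gave -0.37 and -0.39, a mean of -0.38 (SE 0.19, 76.8% of the untreated level, adjusted p = 0.479). Of the 2 treated mutant channels, 1 was well above background. Mutant response minus wild type response was 0.66 for Ptgis (95% interval from 0.02 to 1.29, adjusted p = 0.837), which did not pass.

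The 2 probes of Ptgs2 did not pass in either genotype. Probe a gave 0.55 and 0.46 in wild type cells and 0.87 and 0.01 in mutant cells. All 4 of these ratios were above 0, with means of 0.50 (adjusted p = 0.31) and 0.44 (adjusted p = 0.519). Fitted on the wild type treatment arrays alone, the first was called (adjusted p = 0.0189). Probe b gave 0.23 on the 1 wild type array with a value and 0.62 and 0.06 in mutant cells. Ptges gave 0.00 and 0.38 in wild type cells (mean 0.19, adjusted p = 0.593) and 0.47 and 0.26 in mutant cells (mean 0.37, adjusted p = 0.446).

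Ptgs1 gave -0.22 on the 1 wild type array with a value and -0.02 and 0.10 in mutant cells. Ptgds gave -0.05 there and 0.13 and 0.38 in mutant cells, and Ptgir -0.07 and 0.01 in wild type cells and -0.11 on the 1 mutant array with a value. The largest receptor value was that of Ptger4 in mutant cells (0.37 and 0.62, mean 0.50, adjusted p = 0.433), which was not well above background there. Ptger2 gave 0.61 and -0.01 in wild type and 0.34 and 0.39 in mutant cells, and Ptgfr -0.35 and 0.14 in wild type and 0.05 and 0.03 in mutant cells.

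No member was called in mutant cells either, where none had an unadjusted p under 0.05 and 0% of all 41052 probes were called. Nor did any member differ between the responses of the genotypes, where Ptgis alone had an unadjusted p under 0.05 and again 0% of all 40267 probes were called. Over all probes, an unadjusted p under 0.05 was reached by 4937 in mutant cells and by 2391 for the difference. These counts do not show that the genes failed to respond, since the interval for Ptgs2 probe a in mutant cells ran from -0.14 to 1.02.

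The rest of the pathway was read from a list of 60 genes that feed, branch from or end prostaglandin signalling, of which 56 were on the array with 77 probes. On the genotype arrays 11 of these probes were called, 10 higher and 1 lower, no more than the background of 19.6% would give. The median log2 ratio of the 77 probes was 0.11, against 0.00 over all probes.

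Upstream of the cyclooxygenases, Pla2g4a, the cytosolic phospholipase A2 that frees arachidonic acid, gave 0.20 and -0.02 with its 2 probes and did not pass. Among 18 phospholipase genes on the array 1 was called higher, Pla2g4b (1.89, adjusted p = 0.0252), and 1 lower, Plaa, a phospholipase A2-activating protein (-1.004, adjusted p = 0.0193). Neither was backed by its other probes, which gave -0.28 and 0.65 for Pla2g4b and -0.08 for Plaa.

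Of 12 other terminal synthases, 4 were called, all higher. Counted as probes these were 4 of 16, where 9.83% of all probes were called higher. Ptges2, a membrane-associated prostaglandin E synthase, gave 0.74 and 0.91 (mean 0.82, adjusted p = 0.0167), opposite in sign to Ptges, but -0.26 in Cy3 of the treatment arrays (adjusted p = 0.871). The carbonyl reductases Cbr1, Cbr2 and Cbr3, which can reduce prostaglandin E2, gave 0.98, 0.80 and 0.98 (adjusted p = 0.012, 0.0251 and 0.0122). Ptges3, a cytosolic prostaglandin E synthase and co-chaperone, gave 0.83 and -0.23 with its 2 probes, neither called. The synthase of thromboxane, Tbxas1, gave -0.45 and -0.46 with its 2 probes and the haematopoietic prostaglandin D synthase Hpgds -0.27, and none passed.

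In the group that ends or exports the signal, 3 of 8 genes were called, all higher. As probes they were 3 of 12, against the same 9.83% of all probes. Ptgr1, a prostaglandin reductase, gave 1.12 and 1.43 (mean 1.27, adjusted p = 0.00672). Abcc4, an exporter of prostaglandins, gave 1.52 with 1 probe (adjusted p = 0.00297) and 0.09 with the other, and Slco2a1, the prostaglandin transporter, 1.33 with 1 probe (adjusted p = 0.0135) and -0.07 with the other. The same Abcc4 probe was the only pathway probe called after H2O2, in wild type cells, with log2 ratios of 1.501 and 1.44 (mean 1.47, adjusted p = 0.0404). Hpgd, the dehydrogenase that inactivates prostaglandins, was dim, with -1.08 and -0.93 for its 2 probes (adjusted p = 0.229 and 0.183).

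Of the other receptors, Ptger1, a further prostaglandin E2 receptor, was called (1.40, adjusted p = 0.0383), but was well above background in Cy3 on only 2 of 6 arrays and in Cy5 on none, and the same held for Ltc4s, the leukotriene C4 synthase (1.34, adjusted p = 0.0435), which was above it in Cy3 on 3. Ptger3 gave between -0.22 and 0.21 with 3 probes, Ptgdr 0.43 and 0.06, and the thromboxane receptor Tbxa2r -0.21, with none called. In Cy3 and Cy5 of the treatment arrays no pathway probe was called (limma). An unadjusted p under 0.05 was reached there by 8 and 7 of 75, beside 4101 and 3625 of all 40267 probes. Nor was a pathway probe called for the response of mutant cells or for the difference between the responses. There 8 of 77 and 4 of 75 had an unadjusted p under 0.05, beside 4937 of all 41052 and 2391 of all 40267 probes. The plot of the pathway by role shows every probe.

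**Figure D4:**
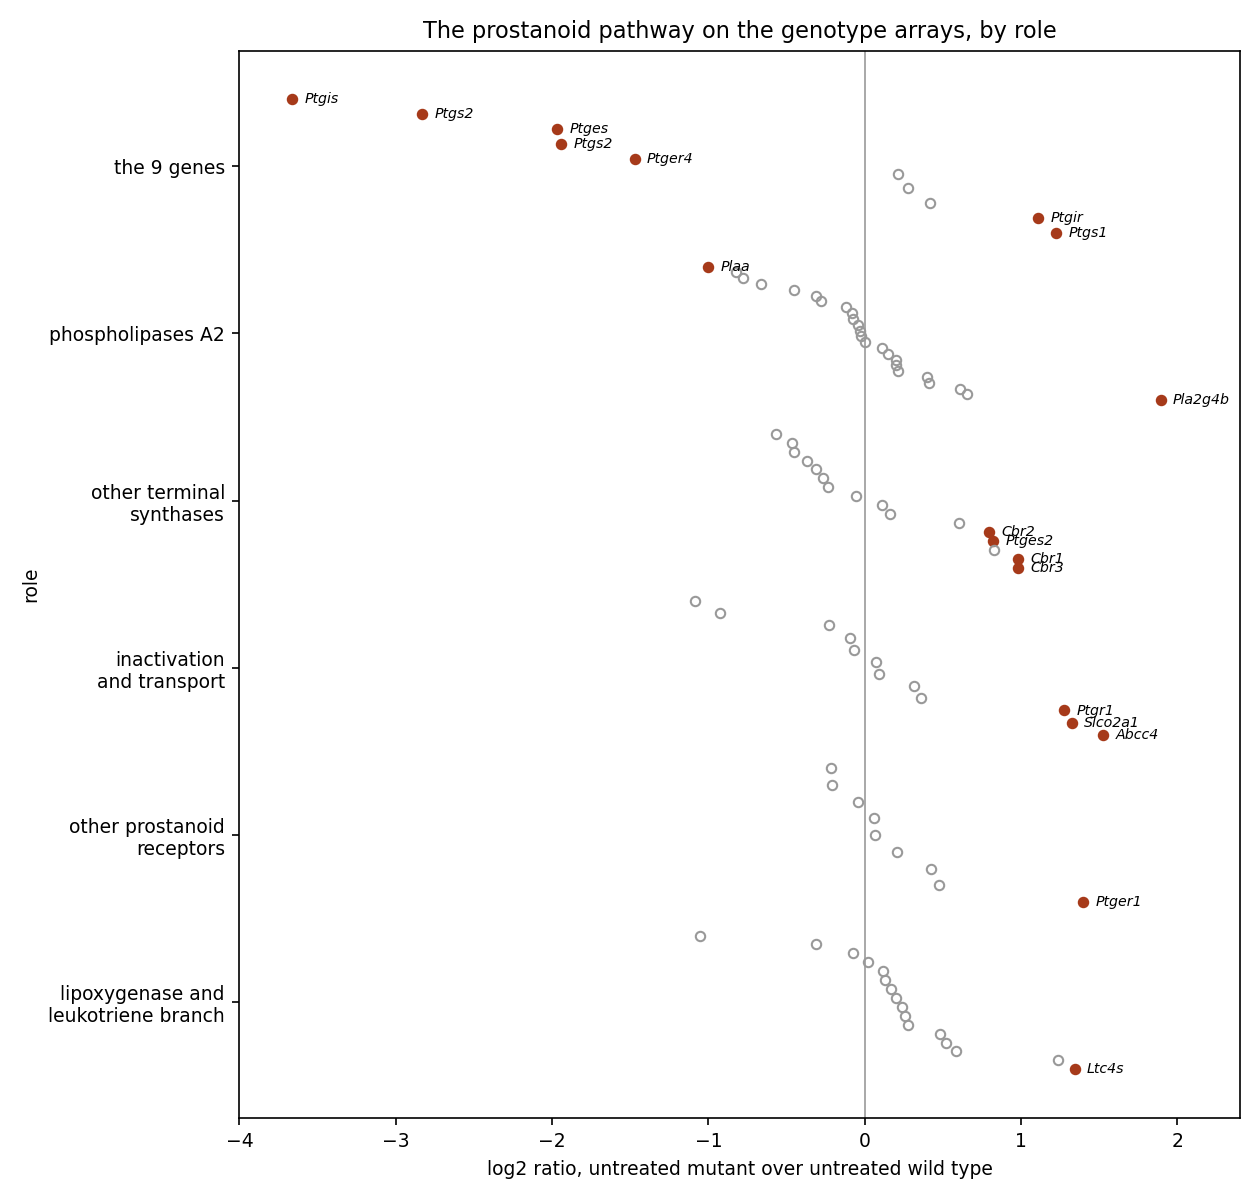
Log2 ratio of untreated mutant over untreated wild type cells (x axis) for each probe of the 9 genes and of the pathway list, grouped by role (y axis) and spread vertically within a role. Filled points have an adjusted p under 0.05 and are named. The 9 genes reach -3.66, while called pathway probes lie at 0.80 or higher except Plaa at -1.004.

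The genes whose 6 log2 ratios were closest to those of Ptgis, by the root mean square difference among 8057 probes with a value on all arrays and a mean log2 intensity above 6, were Ctla2b (0.418), Ankrd27 (0.556), Ctla2a (0.616), 4930589M24Rik (0.767) and Nedd4 (0.79). Ctla2a and Ctla2b are close copies that encode cysteine protease inhibitor-like proteins, and their probes may share signal. On the genotype arrays Ctla2b gave -3.46 and -3.29, beside -3.97 and -3.36 for Ptgis, and in wild type cells treatment gave -0.87 and -0.71. For Ptgs2 probe a, over the 5 arrays with a value, the closest were Shcbp1 (0.222), Dbf4 (0.242), Plk4 (0.252), Rrm2 (0.255) and 5730507H05Rik (0.269). Shcbp1 gave -1.499 on replicate 3 and between 0.19 and 0.75 on the treatment arrays. Replicate 4 did not enter this likeness. Shcbp1 gave -1.606 there, while the outlier spot of probe a read -2.71 and probe b -2.97. This likeness is a description of 5 or 6 values.

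Marker genes were read because the prostaglandin genes are also expressed by cells other than fibroblasts, and fewer cells of a type cannot be told apart from less RNA per cell in such samples. All 11 fibroblast markers were well above background in Cy3 on all 6 arrays. Outlier spots were kept in the sums of normalized intensity, unlike in the tests. The fibroblast sum was 65690 to 76460 in untreated wild type and 98670 to 114100 in untreated mutant cells on the treatment arrays. In the tests, the brightest Col1a1 probe and the Col1a2 probe had no wild type value on these arrays. Of the 15 fibroblast probes tested in their Cy3 channels, 0 were called (limma) and 11 were above 0, with a median of 0.29. On the genotype arrays the fibroblast sums were 80410 to 83550 in wild type and 110800 to 135300 in mutant cells. There 7 of 18 tested fibroblast probes were called higher and none lower, where 9.83% of all probes were called higher. Dcn was among the 7 (2.71, adjusted p = 0.00181). Above 0 were 15 of the 18, with a median of 0.72, but the list was not uniform. Postn was at 0.06, and Col3a1 gave 1.55 with its brightest probe and -1.29 and -0.75 with its dimmer ones. The sum of the 7 endothelial markers was 173 to 432 in wild type and 155 to 157 in mutant cells on the treatment arrays. Their sums on the genotype arrays overlapped, at 176 to 212 and 159 to 209. In Cy3, 3 of the 7 were well above background on all arrays. Of their 10 probes 0 were called on the genotype arrays (limma), and 2 had an unadjusted p under 0.05, which 14769 of all 41099 probes reached. Smooth muscle and perivascular markers summed to 17090 to 23490 in wild type and 17380 to 18740 in mutant cells on the treatment arrays. On the genotype arrays the mutant sums were lower, at 15110 to 29080 in wild type and 11230 to 12480 in mutant cells. There 1 of 13 probes tested was called, Tagln (-2.15, adjusted p = 0.00504), where 19.6% of all probes were called.

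Mast cell and basophil markers summed to 1087 to 1400 in wild type and 307 to 331 in mutant cells on the treatment arrays. Their sums on the genotype arrays were 1091 to 1106 and 201 to 293. In Cy3, 4 of the 9 were well above background on all arrays. On the genotype arrays 2 of 10 probes were called lower, Mcpt8 (-4.83, adjusted p = 0.000543) and Mcpt4 (-0.99, adjusted p = 0.0143), where 9.78% of all probes were. Macrophage markers summed to 555 to 646 in wild type and 618 to 821 in mutant cells on the treatment arrays. Their sums on the genotype arrays were 451 to 501 and 516 to 658. There 2 of 16 probes were called higher, where 9.83% of all probes were. Epithelial markers summed to 890 to 1520 and 907 to 991 on the treatment arrays. Lower mutant sums came from the genotype arrays, at 779 to 856 in wild type and 575 to 738 in mutant cells. There 1 of 7 epithelial probes was called in each direction, against 9.83% of all probes called higher and 9.78% called lower. No list had a gene that was well above background on no array. The mast cell and basophil list did not move as a whole: Mcpt8 was its brightest probe, and in Cy3 of the treatment arrays it alone was called (-4.57, adjusted p = 0.000186), while 6 of the 10 probes were above 0 with a median of 0.03, among them Cpa3 (0.90, adjusted p = 0.507) and Fcer1a (0.32, adjusted p = 0.868). In Cy5 the median of the 10 was 0.47. Beside the lower Ptgis and Ptgs2, mutant cells thus had higher sums of fibroblast markers and less Mcpt8, and the part of these in the differences was not tested.

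Between 75.8% and 90% of spots were well above background in Cy3 and between 41.5% and 69.2% in Cy5. Wild type replicate 2 stood apart in quality, with 22.6% of its spots marked as outliers against 0.4% to 8.81% on the other arrays, and 4 of the 6 member values left out as outliers came from it. The 4 probes of Wrn gave 0.36, -0.91, -0.01 and 0.38 for mutant over wild type, of which only -0.91 was called (adjusted p = 0.0115), with a log2 intensity that averaged 3.02. Where these probes lie relative to the deleted part is not known here, so they do not check the labels.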

How the data were processed

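RNA of mouse embryonic fibroblasts was measured on 6 two-colour Agilent Whole Mouse Genome 60-mer arrays, 2 per comparison. For each array the authors deposited spot intensity means and local background medians for both dyes, quality flags, and a log10 ratio from the Feature Extraction software, whose version is A.7.5.1 per the file headers and another one in the paper. The authors' series table holds log2 ratios after background subtraction and loess. The sources also differ on the RNA (total in the labels, cytoplasmic in the paper).

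From the intensities, local background medians were subtracted, ratios were normalized by loess within arrays, control spots and outlier spots were left out, saturated spots were kept (none was a member's) and spots of a probe were averaged. Feature Extraction ratios and the series table served as alternatives. All 6 arrays were fitted together with limma 3.58.1 in R 4.3.3 (lmFit and eBayes, 1 coefficient per comparison), so the spread is shared between comparisons. Two-sided p-values were adjusted (Benjamini-Hochberg) over all probes, and a probe was called at an adjusted p under 0.05. Single channels were compared after Aquantile normalization between arrays. The labels call replicates biological, but name no animals. The p-values of ratios therefore measure the spread between arrays of these cultures, pooled over the comparisons. A p-value of the genotype arrays thus rests in part on the spread of the treatment arrays. Members, gene lists and tests were chosen with earlier results of these data known. The genes named are the members, called pathway genes, 11 pathway genes named whether called or not, Wrn, and the 5 genes nearest to Ptgis and to Ptgs2. Of 41174 probes, 20716 were named through RefSeq accessions (assembly GRCm38.p6) and the rest keep the array's names. No genome was used. The fits were tested on simulated data. Having 2 arrays per comparison limits the precision. Figures were drawn with matplotlib.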

Additional observations from a re-analysis of the deposited data

How the results depend on the processing

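With the dyes as in the sample labels, every genotype ratio turned its sign: 3.66 for Ptgis, -1.22 for Ptgs1, 2.83 and 1.94 for Ptgs2 probes b and a, 1.97 for Ptges, -0.21 for Ptgds, -0.42 for Ptger2, 1.47 for Ptger4, -0.28 for Ptgfr and -1.11 for Ptgir. Apart from that, Ptgis, Ptgs2 probe b and Ptges stayed called on the genotype arrays in all alternatives run. The number of members called there was 3 with the Feature Extraction ratios, 4 with the genotype arrays alone and 3 at the study's thresholds, and 6 to 8 when an array was left out. In wild type cells after H2O2, 1 member was called with outlier spots kept, with normexp, with the series table and without dim probes, 2 with those arrays alone (Ptgis and Ptgs2 probe a), and 0 to 1 when an array was left out. In Cy3, members called were 0 with normexp, 4 with median scaling, 4 without dim probes and 0 to 5 when an array was left out, and in Cy5 they were 1 with outlier spots kept, 0 with normexp, 1 with median scaling and 0 to 3 when an array was left out. The lower ends came from leaving out a mutant array.

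The pathway list was less stable. In wild type cells after H2O2 its count of 1 became 2 with outlier spots kept, 5 with normexp, 0 with median centring, 0 with Feature Extraction ratios, 2 with the series table, 17 with those arrays alone, 2 without dim probes, 0 at the study's thresholds, and 0 to 14 when an array was left out. In mutant cells it was 7 with median centring, 9 with those arrays alone and 0 to 8 with an array left out. On the genotype arrays it was 7 with median centring, 5 with Feature Extraction ratios, 2 with those arrays alone, 1 at the study's thresholds and 6 to 24 with an array left out. For the difference between responses it was 2 with the treatment arrays alone and 0 to 2 with an array left out, and the ranges in Cy3 and Cy5 were 0 to 9 and 0 to 6. The cause was not tested.

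Several values that were not called changed sign, and not all of them were near 0. Ptger4 was 0.50 in mutant cells and 0.66 for the difference between responses in the main fit, and both turned with median centring. For the wild type response, Ptgds was 0.0924 with outlier spots kept, 0.0924 with the series table, 0.24 with median centring and 0.0341 with Feature Extraction ratios. Median centring also gave 0.38 for Ptgs1 and 0.29 for Ptgir there, -0.12 for Ptger4, -0.78 for Ptgfr and 0.79 for Ptgir in mutant cells, and, for the difference between responses, -0.045 for Ptgs2 probe b, -0.040 for Ptges, -0.11 for Ptger2, -0.050 for Ptger4, -0.27 for Ptgfr and 0.51 for Ptgir. In mutant cells Ptgfr was -0.014 with normexp and 0 with Feature Extraction ratios, which also gave -0.045 for Ptgfr on the genotype arrays and 0.11 for Ptgs2 probe a in the difference. In Cy3, Ptger2 was -0.050 with normexp and -0.036 with quantile normalization, and median scaling gave -0.15 for Ptgds and 0.31 for Ptgfr. In Cy5, Ptger2 was -0.0021 with normexp, and Ptgfr was 0.039 with outlier spots kept, 0.066 with median scaling and 0.014 with quantile normalization.

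When an array was left out, the wild type response ranged from -0.011 to 0.61 for Ptger2, -0.35 to 0.14 for Ptgfr and -0.072 to 0.0088 for Ptgir, and the mutant response of Ptgs1 from -0.024 to 0.099. The difference between responses ranged from -0.49 to 0.36 for Ptgs2 probe a, -0.17 to 0.39 for probe b, -0.013 to 0.36 for Ptges, -0.24 to 0.38 for Ptger2 and -0.10 to 0.39 for Ptgfr. Ptgfr ranged from -0.045 to 0.60 on the genotype arrays, -0.34 to 0.010 in Cy3 and -0.24 to 0.21 in Cy5, and Ptger2 from -0.31 to 0.44 in Cy3 and -0.18 to 0.45 in Cy5. Without genotype replicate 3, Ptger2 (0.68, adjusted p = 0.035) and Ptgfr (0.60, adjusted p = 0.0413) were called.

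The deviations of the ratios on same-numbered wild type and mutant treatment arrays correlated at -0.046. Such ratios cancel what both dyes of an array share, so this value cannot decide whether the numbers pair the cultures. With the replicate number as a block, Ptgs1 (adjusted p = 0.0638) and Ptgir (0.0551) were no longer called on the genotype arrays, 1 member was called in Cy3, the pathway counts were 0 in the wild type response and 4 on the genotype arrays, and the wild type response of Ptgs2 probe b was -0.052 and that of Ptgds 0.077. A block for extraction or scan day was not run. Signal over background limits Ptger2, Ptger4 and Ptgfr.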
